A study of Homo sapiens with 12 samples.

Results

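The genes described here are 9 genes of MHC class I antigen presentation, HLA-B, HLA-C, HLA-E, HLA-F, B2M, TAP1, TAP2, PSMB8 and PSMB9, measured on arrays of PC-3 cells. The PC-3 line, an established line of prostate adenocarcinoma, grows without androgen. The members were taken as every probe whose RefSeq transcript belongs to 1 of these genes, which gave 12 of the 34127 probes that are not controls, and all 12 were kept by the filter on dim probes. HLA-B, HLA-F and TAP2 had 2 probes each. No measured value chose them, although the pathway was picked with earlier results of these data known.

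RNA from 12 samples was hybridized to 6 two-colour arrays on 2 slides, in 6 groups with 1 sample of each on either slide. All cells carried a plasmid for the red fluorescent protein Td-Tomato and were kept under G418. Control cells carried the empty vector and PIM1 cells a vector for the serine/threonine kinase PIM1. WT and MM cells were control cells transiently given wild-type NFATC1, a transcription factor, or multi-mutant NFATC1 with its PIM1 target sites mutated. PIM1 + WT and PIM1 + MM cells were PIM1 cells given the same vectors. The stable cells came from 1 selected pool per vector, so that an effect of stable PIM1 and a difference between the pools cannot be told apart. The sources do not say that the replicates were separate transfections, and p-values then measure only the spread between these samples, which may be technical. Cy3 marked the control, WT and PIM1 + WT samples and Cy5 the others, without a dye swap. PIM1 minus control therefore sets Cy5 against Cy3 on the same array, while PIM1 + WT minus WT lies within Cy3 and PIM1 + MM minus MM within Cy5. The mean of the latter pair, called the effect over both NFATC1 forms, sets 4 samples against 4 and is free of a fixed dye difference. In it the 4 samples with stable PIM1 fill 2 arrays and the other 4 fill 2 others. Array and stable PIM1 therefore cannot be told apart, here or within 1 form. The main fit takes both samples of an array as independent.

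MHC class I molecules show short peptides from inside a cell to T cells and NK cells. Proteasomes cut proteins into peptides, and the interferon-inducible subunits encoded by PSMB8 and PSMB9 replace constitutive ones in the immunoproteasome. TAP1 and TAP2 form the transporter that carries peptides into the endoplasmic reticulum, where they are loaded onto a heavy chain (such as HLA-B, HLA-C, HLA-E or HLA-F) held together with the invariant light chain, β2-microglobulin, encoded by B2M. The HLA-B and HLA-C chains present peptides to T cells, whereas HLA-E is best known as a ligand of NK cell receptors. The genes are known for induction by interferons, through STAT and IRF factors, and for control by NLRC5 together with RFX, CREB and NF-Y proteins at their promoters.

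The upstream sequences are shown as a description of known elements of these promoters. Whether the elements have a part in the differences between the members was not tested. The RefSeq promoter table (GRCh38.p14) held 10 windows for 8 of the 9 genes. Each sequence below is the 250 bases before the transcription start, read 5′ to 3′ on the strand of the gene. Capitals mark matches to the core of the interferon-stimulated response element (ISRE, searched as GAAA, any 2 bases and GAAA again, on both strands) and to the Y box bound by NF-Y (searched as CCAAT on both strands). The ISRE core is in 3.02% of all 35116 windows of the table and the Y box in 32%.
B2M (chr15:44711267-44711516, plus strand): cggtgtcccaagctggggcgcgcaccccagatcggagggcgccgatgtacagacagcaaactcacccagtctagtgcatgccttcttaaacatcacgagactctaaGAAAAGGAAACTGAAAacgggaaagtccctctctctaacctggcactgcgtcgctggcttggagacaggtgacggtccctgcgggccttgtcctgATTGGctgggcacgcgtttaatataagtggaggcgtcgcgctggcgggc
HLA-F (chr6:29723184-29723433, plus strand): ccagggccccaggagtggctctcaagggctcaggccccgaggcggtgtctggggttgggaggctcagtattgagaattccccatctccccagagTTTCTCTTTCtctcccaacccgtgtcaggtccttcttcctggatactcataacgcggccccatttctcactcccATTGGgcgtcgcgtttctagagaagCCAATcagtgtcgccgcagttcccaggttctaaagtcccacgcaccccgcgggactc
HLA-B (chr6:31357180-31357429, minus strand): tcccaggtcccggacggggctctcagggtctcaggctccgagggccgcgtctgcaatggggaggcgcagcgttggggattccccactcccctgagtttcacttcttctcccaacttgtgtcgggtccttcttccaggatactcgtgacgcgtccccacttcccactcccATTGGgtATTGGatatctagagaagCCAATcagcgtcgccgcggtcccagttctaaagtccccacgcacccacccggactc
TAP1 (chr6:32853705-32853954, minus strand): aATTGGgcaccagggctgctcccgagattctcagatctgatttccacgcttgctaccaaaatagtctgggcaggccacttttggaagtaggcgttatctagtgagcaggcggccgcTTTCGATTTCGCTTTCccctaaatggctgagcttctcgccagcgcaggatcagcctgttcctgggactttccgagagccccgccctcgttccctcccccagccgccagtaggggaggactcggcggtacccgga
PSMB9 (chr6:32853942-32854191, plus strand): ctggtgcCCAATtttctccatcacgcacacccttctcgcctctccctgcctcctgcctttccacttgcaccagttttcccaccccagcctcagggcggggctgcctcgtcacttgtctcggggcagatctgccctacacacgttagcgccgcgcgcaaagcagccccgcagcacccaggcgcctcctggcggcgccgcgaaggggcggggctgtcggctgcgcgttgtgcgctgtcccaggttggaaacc
TAP2 (chr6:32838740-32838989, minus strand): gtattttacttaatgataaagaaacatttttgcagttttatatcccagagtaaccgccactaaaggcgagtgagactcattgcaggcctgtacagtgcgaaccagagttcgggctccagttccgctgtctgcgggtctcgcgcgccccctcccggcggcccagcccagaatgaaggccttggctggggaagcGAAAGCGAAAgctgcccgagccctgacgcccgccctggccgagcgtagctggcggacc
TAP1 and PSMB9 lie head to head. Their first starts are separated by 487 bases, both windows together cover this spacer, and they share 13 bases that hold the same Y box. An ISRE core was found in B2M (first bases at -144 and -138 from the start, overlapping each other), the first start of TAP1 (-134 and -128, likewise overlapping), HLA-F (-156) and TAP2 (-58), and in none of the windows of HLA-B, HLA-C, PSMB8 and PSMB9. HLA-B had 3 Y boxes, and HLA-F and HLA-B shared a pair in similar places, at -82 and -57 in HLA-F and at -81 and -56 in HLA-B. The core of the cAMP response element (TGACG, on both strands), bound by CREB proteins, was found in 6 member genes and is in 21.2% of all windows. The core letters of NFAT sites (GGAAA, on both strands) were found in B2M, TAP1, PSMB8 and PSMB9 and are in 55.6% of all windows. In B2M and TAP1 a match of these letters overlapped an ISRE match. A match of letters is a description and not a binding site. The lack of a match is not the lack of an element, since only these letters and 250 bases were searched. The ISRE matches of TAP1 lie in the spacer between TAP1 and PSMB9, outside the PSMB9 window.

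On average over the 8 samples with NFATC1, B2M, HLA-E, PSMB8 and TAP1 were higher in cells with stable PIM1, as was 1 of 2 HLA-F probes. PSMB9 and 1 of 2 HLA-B probes were lower, while HLA-C and TAP2 did not pass the test. With MM NFATC1 alone, these HLA-F (0.18) and HLA-B (0.04) probes and PSMB9 (-0.14) were not called. Over both NFATC1 forms, 7 of 12 member probes were called at a Benjamini-Hochberg adjusted p below 0.05 in limma, 5 higher and 2 lower. Of all 31484 probes tested, 34.1% were called in this comparison, 16.4% higher and 17.7% lower. With array as a random block 27.2% of all probes were called, and the count of member probes stayed at 7. The median log2 difference was 0.111 over the member probes and -0.00056 over all probes. No member difference reached 1 on the log2 scale. With each channel centred on its median in place of quantile normalization, the 7 called probes kept their signs in this comparison, but 0 of 12 were called, and of all calls 31.1% were higher, against 48.1% before.

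The light chain gene B2M had the largest difference among the members. Its probe (A_23_P37441, 10 spots per array) had log2 intensities of 14.02 and 14.06 in control, 13.96 and 13.92 in WT and 13.95 and 13.89 in MM cells. In PIM1 cells they were 14.89 and 14.84, in PIM1 + WT cells 14.60 and 14.58 and in PIM1 + MM cells 14.62 and 14.51. Every sample with stable PIM1 was above every sample without it. The log2 difference over both NFATC1 forms was 0.65 (standard error 0.0437, limma adjusted p = 6.47e-06), a 1.57-fold higher intensity. It was 0.65 in both forms taken alone and 0.83 (adjusted p = 2.72e-05) in PIM1 minus control, where median centring gave 0.07 (adjusted p = 0.848). The interaction, which is the effect of stable PIM1 with WT minus that with MM NFATC1, was 0.01 (95% interval -0.19 to 0.20).

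HLA-E (A_32_P460973) behaved similarly. It had log2 intensities of 12.42 and 12.41 in control, 12.57 and 12.54 in WT and 12.47 and 12.58 in MM cells, against 13.20 and 13.13 in PIM1 + WT and 13.14 and 13.14 in PIM1 + MM cells. The PIM1 samples, at 12.82 and 13.05, were the most spread of this gene and still lay above all samples without stable PIM1. Over both forms HLA-E was higher by 0.61 (standard error 0.056, limma adjusted p = 3.96e-05). Its interaction was -0.01 (95% interval -0.26 to 0.25). Without NFATC1 the difference was 0.52 (adjusted p = 0.00119), which median centring turned to -0.215 (adjusted p = 0.482).

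HLA-F, a nonclassical chain that also binds receptors of NK cells, was read by a bright and a dim probe. The bright probe (A_33_P3379939) had log2 intensities of 12.56 and 12.51 in control and 13.09 and 13.05 in PIM1 cells, and of 12.70 and 12.68 in WT and 13.18 and 13.22 in PIM1 + WT cells. In MM cells the values were 12.46 and 12.45, and in PIM1 + MM cells 12.59 and 12.67. The samples with stable PIM1 and MM NFATC1 were below the WT samples, which lack stable PIM1. These groups also differ in dye, array and NFATC1 form. The differences were 0.53 in PIM1 minus control (adjusted p = 0.000173), 0.51 in PIM1 + WT minus WT (adjusted p = 0.000207) and 0.18 in PIM1 + MM minus MM (adjusted p = 0.0561). The first turned to -0.197 under median centring. The interaction was 0.33 (standard error 0.081, adjusted p = 0.0715); it was called with array as a random block (adjusted p = 0.0137), with the filter in all channels (0.0273), with the processed signal (0.0434) and with loess (0.0157). The dim probe (A_33_P3379967) was well above background in 11 of 12 channels and differed by 0.15 over both forms (adjusted p = 0.247).

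HLA-B was the class I chain with a called lower value, at 1 of its 2 probes. Its first probe (A_33_P3379947) had log2 intensities of 12.38 and 12.41 in control, 12.33 and 12.35 in WT and 11.85 and 11.95 in PIM1 + WT cells. The PIM1 samples were at 12.13 and 12.01, the MM samples at 11.92 and 12.01 and the PIM1 + MM samples at 11.97 and 12.03. The 4 Cy3 samples without stable PIM1 thus stood apart at the top, and all 6 Cy5 samples were close together whatever they carried. The difference was -0.44 within Cy3 (adjusted p = 0.00118) and 0.04 within Cy5 (adjusted p = 0.772), with an interaction of -0.48 (standard error 0.0963, limma adjusted p = 0.0374). It was the only member probe called in the interaction, where 2.6% of all probes were called. The form of NFATC1 and the dye cannot be told apart here. Leaving out 1 of the 8 samples ended the call in 7 of 8 cases, with an adjusted p of 0.0866 to 0.172. Over both forms the difference was -0.20 (adjusted p = 0.00955). The second HLA-B probe (A_33_P3424800) differed by -0.08 over both forms (adjusted p = 0.592), with an SD of 0.282 between the replicates in PIM1 cells.

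HLA-C (A_33_P3330109), a classical chain like HLA-B, had log2 intensities between 13.38 and 13.69 in the 12 samples. Its differences were 0.21 without NFATC1 (adjusted p = 0.0607, which was 0.0239 with array as a random block and 0.0307 when control replicate 1 was left out), 0.01 with WT NFATC1 and 0.12 with MM NFATC1. Over both forms the difference was 0.07 with a 95% interval of -0.05 to 0.18, whose upper bound is below the differences of B2M and HLA-E. Probe sequences were not used here, and the HLA genes are near-identical over much of their length, so that reads of 1 HLA gene by the probe of another cannot be set aside.

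**Figure D1:**
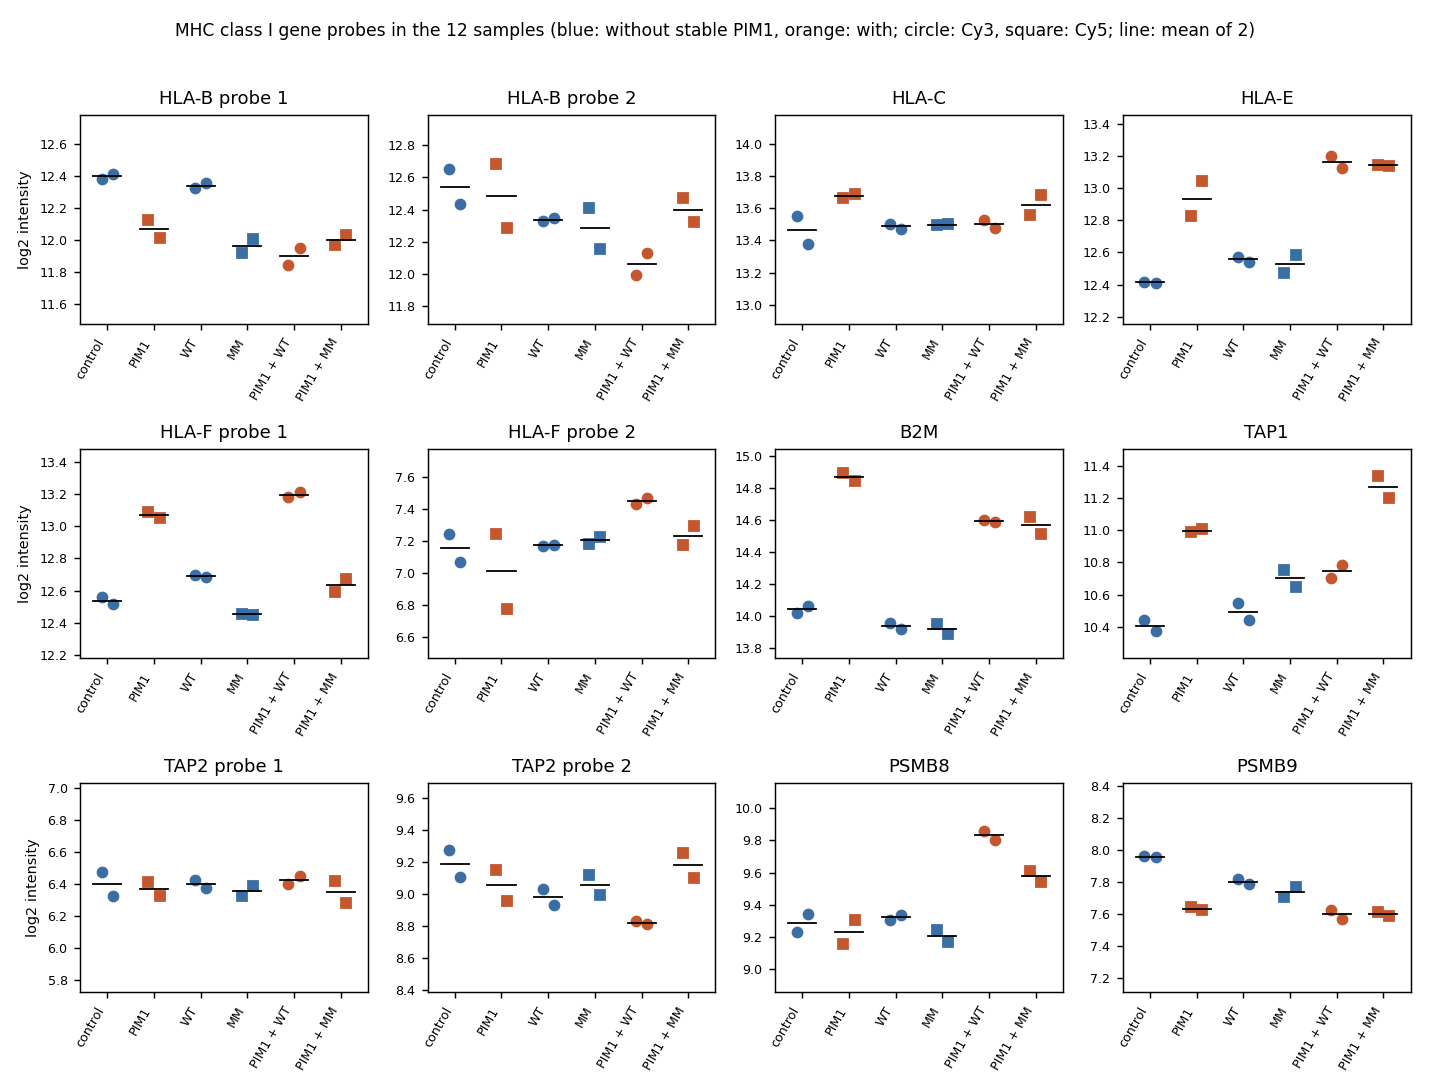
Log2 intensity after quantile normalization of the 12 member probes in each of the 12 samples, by group, with blue for cells without and orange for cells with stable PIM1, circles for Cy3, squares for Cy5 and a line at the mean of 2 samples. B2M and HLA-E (higher) and PSMB9 (lower) separate the samples with stable PIM1 from all others. PSMB8 separates only those that also carry NFATC1, and HLA-B probe 1 is high in the control and WT samples alone.

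TAP1, a subunit of the peptide transporter, was higher with stable PIM1 in each of the 3 comparisons. Its probe (A_23_P59005) had log2 intensities of 10.44 and 10.37 in control and 10.99 and 11.01 in PIM1 cells. They were 10.55 and 10.44 in WT, 10.71 and 10.79 in PIM1 + WT, 10.75 and 10.65 in MM and 11.34 and 11.20 in PIM1 + MM cells. The PIM1 + WT samples overlapped the MM samples, but neither pair compared within a dye overlapped. The differences were 0.59 (adjusted p = 0.000399), 0.25 (adjusted p = 0.0312) and 0.57 (adjusted p = 0.00086) without NFATC1, with WT and with MM. Leaving out 1 of the 4 samples ended the call with WT in every case (adjusted p = 0.0606 to 0.207). Median centring turned the first to -0.04 and the second to -0.003. The interaction was -0.32 (adjusted p = 0.162, and 0.0493 with array as a random block).

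TAP2, the other subunit, did not follow. Its brighter probe (A_33_P3214650) had log2 intensities between 8.81 and 9.27, and its difference over both forms was -0.02 (adjusted p = 0.871, 95% interval -0.17 to 0.13). The other TAP2 probe (A_23_P368067) was not well above background in any channel. TAP2 carries an ISRE core in the window printed above, as do TAP1, B2M and HLA-F.

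The immunoproteasome subunits among the members, PSMB8 and PSMB9, moved in opposite directions over both NFATC1 forms. PSMB8 (A_23_P250629) had log2 intensities of 9.31 and 9.34 in WT and 9.24 and 9.16 in MM cells, and of 9.86 and 9.80 in PIM1 + WT and 9.61 and 9.54 in PIM1 + MM cells. The control samples were at 9.23 and 9.34, and the PIM1 samples at 9.16 and 9.30 overlapped them. Over both NFATC1 forms PSMB8 was 0.44 higher with stable PIM1 (standard error 0.0514, adjusted p = 0.000167), a 1.36-fold intensity. It was 0.51 with WT (adjusted p = 0.000766) and 0.37 with MM NFATC1 (adjusted p = 0.00703), the latter not called without MM replicate 2 (adjusted p = 0.0561). Without NFATC1 the difference was -0.06 (adjusted p = 0.665). The effect with NFATC1 minus the effect without it, a test added after the data were seen, was 0.50 (standard error 0.089, adjusted p = 0.00938). No other member probe was called in that test, which called 10.4% of all probes. Dye does not cancel in it, since the effect without NFATC1 compares Cy5 with Cy3. Array does not cancel either, since the effect with NFATC1 compares different arrays.

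PSMB9 (A_23_P111000) was lower with stable PIM1. Its log2 intensities were 7.96 and 7.95 in control, 7.82 and 7.79 in WT and 7.71 and 7.77 in MM cells. They were 7.64 and 7.63 in PIM1, 7.63 and 7.57 in PIM1 + WT and 7.62 and 7.59 in PIM1 + MM cells. All 6 samples with stable PIM1 were below the other 6, at 7.57 to 7.64 against 7.71 to 7.96. The difference over both forms was -0.17 (standard error 0.0395, adjusted p = 0.0084) and without NFATC1 -0.32 (adjusted p = 0.00231). Within Cy3 it was -0.20 (adjusted p = 0.0231), a call that ended without any 1 of the 4 samples (adjusted p = 0.0671 to 0.15), and within Cy5 it was -0.14 (adjusted p = 0.125). PSMB9 thus went down and its divergent neighbour TAP1 up.

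Counted by comparison, 6 of 12 member probes were called in PIM1 minus control, 4 higher and 2 lower, where 26.3% of all probes were called (13.1% higher and 13.1% lower). In PIM1 + WT minus WT it was 7, with 5 higher and 2 lower, against 27.7% of all probes (13.2% higher and 14.5% lower). In PIM1 + MM minus MM it was 4, all higher, against 19.3% of all probes (9.81% higher and 9.53% lower). The 4 were HLA-E, B2M, TAP1 and PSMB8.

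**Figure D2:**
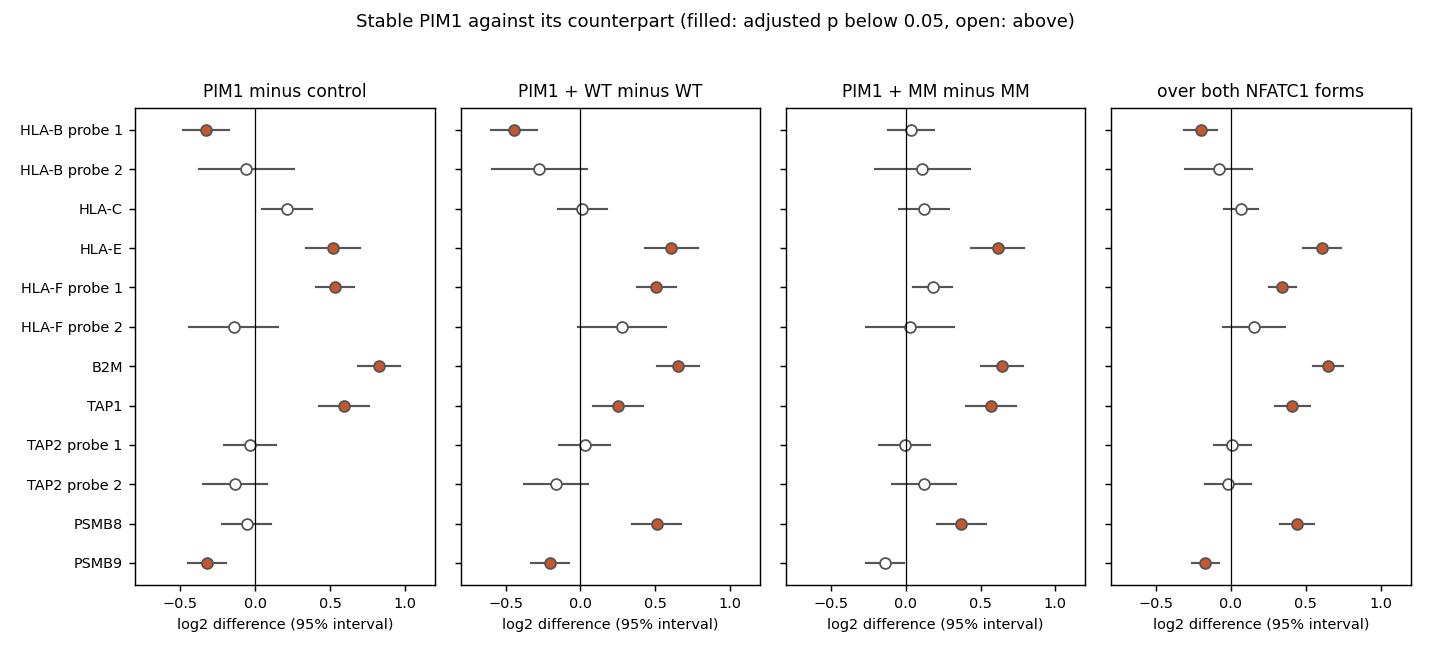
Log2 difference of each member probe with its 95% interval in the 3 comparisons of cells with and without stable PIM1 and over both NFATC1 forms, where filled points have an adjusted p below 0.05 in limma. B2M and HLA-E lie between 0.52 and 0.83 in all panels, and HLA-B probe 1 is below 0 in every panel but that with MM NFATC1.

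The forms of NFATC1 were compared with and without stable PIM1. Without stable PIM1, HLA-B probe 1 alone was called in WT minus MM (0.38, adjusted p = 0.0407, against 1.02% of all probes called), and that call ended without any 1 of the 4 samples (adjusted p = 0.182 to 0.315). With stable PIM1, 4 member probes were called in PIM1 + WT minus PIM1 + MM, against 17.1% of all probes. HLA-F probe 1 was higher by 0.57 (adjusted p = 0.000268) and PSMB8 by 0.25 (adjusted p = 0.0413), while TAP1 was lower by -0.52 (adjusted p = 0.00159) and the brighter TAP2 probe by -0.36 (adjusted p = 0.0309). Of these, HLA-F and TAP1 were called whichever sample was left out. The call of PSMB8 was lost without any of the 4 samples (adjusted p = 0.0641 to 0.204), and that of TAP2 without any of them but PIM1 + MM replicate 2 (adjusted p = 0.126 to 0.139). These comparisons set Cy3 against Cy5 on the same array.

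Adding NFATC1 was also compared within a dye, between samples on different arrays. Array and added NFATC1 therefore cannot be told apart in WT minus control or in PIM1 + MM minus PIM1. The array did not read the added forms at equal levels. NFATC1 probe A_24_P258846 had log2 intensities of 6.87 and 6.87 in control and 6.58 and 6.19 in PIM1 cells, 7.72 and 7.82 in WT and 7.94 and 8.01 in PIM1 + WT cells, but 11.37 and 11.22 in MM and 11.98 and 11.92 in PIM1 + MM cells. It was higher by 0.90 in WT minus control (adjusted p = 0.0274) and by 5.57 in PIM1 + MM minus PIM1 (adjusted p = 6.93e-08). The other NFATC1 probe (A_23_P300150) differed by -0.01 in WT minus control and by -0.10 in PIM1 + MM minus PIM1 (both uncalled), and was lower by -1.07 with stable PIM1 over both forms (adjusted p = 3.65e-07). Differences between WT and MM cells, the interaction included, therefore cannot be told apart from a difference in the amount of NFATC1 or in dye. In WT minus control, 0 of 12 member probes were called by limma (2 at an unadjusted p below 0.05), against 0.191% of all probes. In PIM1 + MM minus PIM1, 4 were called against 13.5% of all probes, with HLA-F probe 1 lower by -0.44 (adjusted p = 0.00247), B2M lower by -0.30 (adjusted p = 0.0143), PSMB8 higher by 0.35 (adjusted p = 0.0155) and TAP1 higher by 0.27 (adjusted p = 0.0422). The values for B2M, PSMB8 and TAP1 were not called without PIM1 replicate 1 (adjusted p = 0.054, 0.0666 and 0.116). B2M was also not called without PIM1 + MM replicate 2 (adjusted p = 0.0765), PSMB8 without PIM1 + MM replicate 1 (adjusted p = 0.0573) and TAP1 without any of the 4 samples.

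The peptide-loading and trimming genes, a list of 13 genes read by 20 probes, had 7 probes called higher and 3 lower over both forms. That is 50% of its probes, against 34.1% of all probes (16.4% higher and 17.7% lower). The median log2 difference of the list was 0.0776. TAPBP, which encodes tapasin, the bridge between the transporter and the class I chain, had the largest value, 0.90 at 1 probe and 0.60 at another, with a further, dim probe at 0.35 uncalled (adjusted p values are from limma throughout). PDIA3, the disulfide isomerase of the loading complex, was higher by 0.53 and 0.24 at its probes. The constitutive proteasome core, 14 genes with 17 probes, had 3 probes called higher and 3 lower, 35.3% against 34.1% of all probes, with a median of -0.0408. The called values there reached 0.31 for PSMB2 and -0.31 for PSMA6, a subunit of the outer ring.

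Among 23 regulators of class I genes, read by 32 probes, 8 probes were called higher and 8 lower over both forms. That is 50% of these probes, against 34.1% of all probes (16.4% higher and 17.7% lower). IRF9, a part of the interferon-activated factor ISGF3, was higher by 0.74, and STAT2, also in ISGF3, differed by 0.07 (uncalled) and in PIM1 minus control by -0.61 (called). IRF1, which binds class I promoters after interferon, differed by 0.10 (uncalled). NLRC5, the class I transactivator, was higher by 0.46 at 1 probe and the other was not well above background in any channel. The subunits of NF-Y, which binds the Y box, went apart: NFYC was higher at 3 of 4 probes, by 0.45 to 0.61, NFYB lower by -0.71 and NFYA lower by -0.43 at 1 of 2 probes. CREB1 was lower by -0.54.

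The list of interferon-stimulated genes had 29 of 34 probes called over both forms, all of them higher, against 16.4% of all probes called higher. Its median log2 difference was 0.815, and it shares no gene with the members. BST2 (1.61), IFI44L (1.49) and IFI6 (1.49) were the highest, each above the difference of every class I member. With median centring 12 of the 34 probes were called higher, where 4.84% of all probes were called in either direction. Of the ligands of NK cell receptors and class I-like genes, MICB (0.52 and 0.35) and MICA (0.48 and 0.44) were higher and ULBP1 was lower (-0.55) at 1 of 2 probes. MICA went the other way in PIM1 minus control, at -0.57 for the first probe. The class II list had 3 of 19 probes called higher, 15.8% against 16.4% of all probes called higher, 1 each of HLA-DMA (0.41), HLA-DQB1 (0.21) and HLA-DRB1 (0.19), and its median was 0.00186.

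The 5 genes outside the members whose values followed the mean centred value of the 12 member probes most closely were IFIT2 (Pearson r = 0.98), GSN (0.98), SNHG18 (0.98), CCNDBP1 (0.97) and ST6GALNAC2 (0.97). These are descriptions over 12 samples that share arrays and groups. IFIT2 was higher by 0.92 over both forms and GSN by 0.42.

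The median raw intensity was 86 to 139 in Cy3 and 176 to 318 in Cy5, and 2 samples per group limit how precise a value can be. The single PIM1 probe did not separate the groups, with a difference of -0.04 over both forms (adjusted p = 0.75) and 0.25 in PIM1 minus control (adjusted p = 0.106), and whether it reads the transfected sequence is not known. Stable PIM1 therefore stands for the label of the cells. The study reports overexpression of PIM1 and/or NFATC1 in these samples from real-time qPCR, whose values were not analysed here. The epithelial markers KRT8, KRT18 and EPCAM were well above background in every channel and CDH1 in 9. Over both forms 3 of 7 epithelial probes were called, 42.9% against 34.1% of all probes. EPCAM (-0.58) and CDH1 (-0.38) were lower and 1 of 3 probes of KRT8 was higher (0.32). The summed intensity of the epithelial list was 48400 to 48800 in PIM1 + MM cells and 51100 to 59700 in the other groups. Of 9 immune marker probes kept, CD14 (0.26) and CD68 (0.23) were called higher over both forms and the T cell marker CD3E was not called. Those calls are 22.2% of the immune probes, against 16.4% of all probes called higher. CD3E was well above background in 3 of 12 channels, and the class II genes HLA-DRA and CD74 in none. PTPRC, the pan-leukocyte marker CD45, was above it in no channel at 3 of 5 probes and in 12 and 9 channels at the others. The brightest of these (A_33_P3309526) differed by 0.68 in PIM1 minus control (adjusted p = 0.000742) and by -0.01 over both forms (uncalled). The summed intensity of the immune list was 1910 to 2110 in the groups without stable PIM1, 2300 to 2340 in PIM1, 2600 to 2710 in PIM1 + WT and 2000 to 2030 in PIM1 + MM cells. The part of either list in the class I values was not tested.

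The member values were similar under most ways of processing the arrays. Over both NFATC1 forms, the 7 called probes were called under all 21 settings fitted by probe other than median centring. With the median of probes per gene, 6 of the 9 genes were called. B2M then ranged from 0.62 to 0.68, HLA-E from 0.58 to 0.64, PSMB8 from 0.42 to 0.48, TAP1 from 0.38 to 0.45 and HLA-F probe 1 from 0.32 to 0.36. HLA-B probe 1 ranged from -0.23 to -0.18 and PSMB9 from -0.30 to -0.16. Median centring gave 0.45 for B2M, 0.42 for HLA-E and -0.44 for HLA-B probe 1, and it put the median of all probes at 0.0927, from -0.00056.

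**Figure D3:**
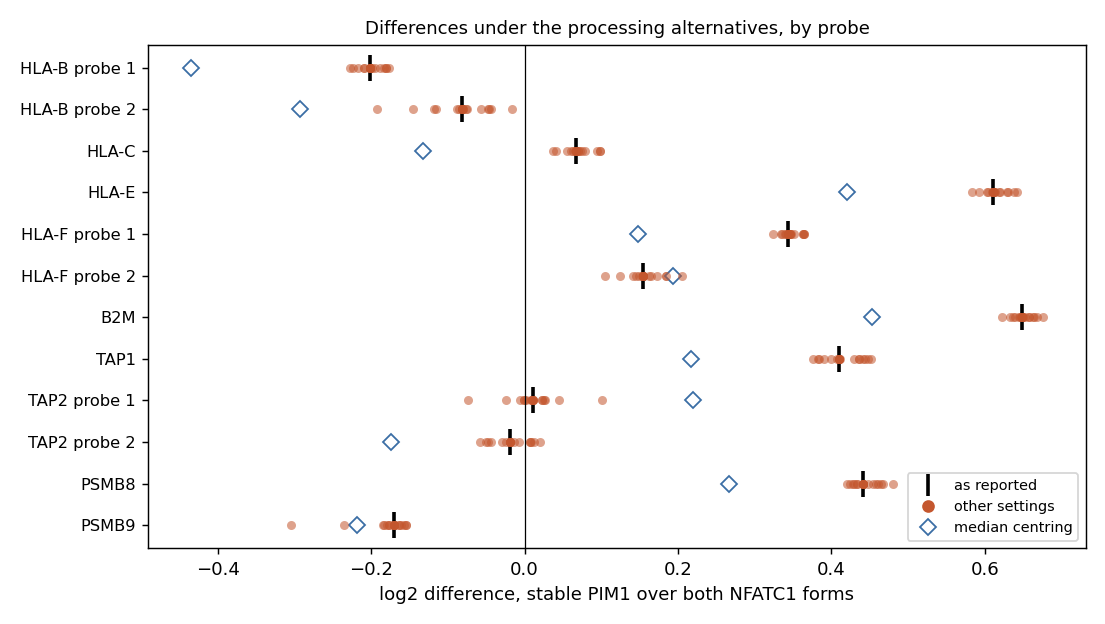
Log2 difference over both NFATC1 forms of each member probe as reported (black bar), under each other setting fitted by probe, samples left out included (orange points), and with median centring (blue diamonds). The order of B2M and HLA-E above PSMB8, TAP1 and HLA-F, with HLA-B probe 1 and PSMB9 below 0, is the same with median centring.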

How the data were processed

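The members and gene lists were chosen with earlier results of these data known. Gene expression of 12 samples in 6 groups of 2 was measured on Agilent two-colour arrays, and per the file headers the authors extracted the signals with Feature Extraction 11.0.1.1. The deposited raw intensity (median signal) and processed intensity are on a linear scale. The deposited log2 table is the quantile-normalized log2 median signal, to a largest difference of 0.0844. Both samples of an array share 1 scanner file, and each was read in the dye its label names.

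Outlier spots, by the flags of the software, were removed before spots of the same probe were averaged. Probes above the 90th percentile of 153 negative control spots in at least 2 of 12 channels were kept (31484), without background subtraction, and quantile normalized. The share of spots well above background was 56.94% to 69.03% per channel, and 0 spots were saturated. Symbols came from RefSeq transcripts of GRCh38.p14, which named 26377 of 34127 probes. Probes of a gene were kept apart. The array design names an older build, so that no gene coordinates were taken from it.

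A model with 1 mean per group was fitted to all 12 samples in limma 3.58.1 (R 4.3.3), with two-sided p-values adjusted by Benjamini-Hochberg over all probes of a comparison and 95% intervals from the moderated fit. The named genes are all member probes, at most the 3 called genes of each list with the largest difference over both NFATC1 forms, the regulators and the 5 genes most similar in pattern. IFI27, in the interferon list, and LYZ, in the immune list, had no probe with a matched symbol. Some genes of the lists are not reported here by name. The fit was tested on simulated data. The alternatives covered background correction, normalization, signal, filter, flags, a damaged area of 1 channel (first 33 rows), probe summary, slide or array as block, the samples fitted and samples left out. For TAP1 and PSMB8 the promoter table gives 2 starts. The methods and the results of the study name different times after transfection.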

Additional observations from a re-analysis of the deposited data

Results flagged for a closer look

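The effect of stable PIM1 on HLA-B probe 1 differed between cells with WT and with MM NFATC1, by a test of the difference itself. NFATC1 form, its amount and dye cannot be told apart in this test. On the log2 scale the interaction was -0.48, with a standard error of 0.0963 and a limma adjusted p of 0.0374. It came from -0.44 with WT NFATC1 in Cy3 and 0.04 with MM NFATC1 in Cy5. On both slides, which share the dye layout, it was negative (-0.53 and -0.43). The call was lost with normexp background correction (-0.477, limma adjusted p = 0.0587) and with loess (-0.373, limma adjusted p = 0.0735). It was also lost, as given above, without most single samples. The second HLA-B probe gave -0.39 (adjusted p = 0.381).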

How the results depend on the processing

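Median centring was the setting that ended most calls. Under it the count of member probes called was 0 over both NFATC1 forms, in PIM1 + WT minus WT, in PIM1 + MM minus MM, in PIM1 + MM minus PIM1, in PIM1 + WT minus PIM1 + MM, in WT minus MM and in the interaction, and 2 in PIM1 minus control, both lower (HLA-B probe 1 and PSMB9). It turned HLA-E to -0.215, HLA-F probe 1 to -0.197 and TAP1 to -0.037 in PIM1 minus control, and TAP1 to -0.00297 in PIM1 + WT minus WT, none of them called. It put the median of all probes at 0.0992 in PIM1 minus control (from 0.00649) and at 0.125 in PIM1 + WT minus WT (from -0.00524). Among all probes it gave 1525 calls over both forms against 10742, but 10824 in PIM1 minus control against 8269. Of the calls in PIM1 + WT minus WT 36% were higher, against 47.6%. The cause was not tested.

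In the interaction the count went from 1 to 3 with array as a random block (correlation 0.407; HLA-F probe 1 and TAP1 added), to 2 with the filter in all channels or the processed signal, and to 0 with normexp or the median of probes per gene. In WT minus MM it went from 1 to 2 with array as a random block or the filter in all channels, and to 0 with normexp, the processed signal, the median of probes per gene or the groups compared only. In PIM1 + WT minus PIM1 + MM it went from 4 to 2 with the processed signal or the groups compared only. In PIM1 + MM minus PIM1 it went from 4 to 2 without the array of control and PIM1 replicate 1, and to 0 with the groups compared only. With single samples left out the counts ranged from 0 to 1 in the interaction, 2 to 3 in PIM1 + WT minus PIM1 + MM and 2 to 4 in PIM1 + MM minus PIM1, and were 0 in WT minus MM. A sample left alone in its group was taken to vary like those of the other groups. With loess HLA-B probe 1 was not called in the interaction (-0.373, adjusted p = 0.0735), and HLA-F probe 1 was (0.441, adjusted p = 0.0157).

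Slide as a block (the replicate block) kept the count of 7 member probes over both forms and changed no other count. The replicate number is the slide, and deviations from the group means correlated by 0.837, 0.486 and 0.339 within arrays but by 0.0506 to 0.172 between arrays of a slide, so that the numbers alone do not pair the samples. HLA-B, HLA-F and TAP2 have 2 probes and so no value of their own under the median of probes per gene. The dim HLA-F and TAP2 probes are limited by signal over background.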
